A study of Mus musculus with 6 samples.

Results

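The genes described here carry out DNA replication and mitosis, and 45 of the 57180 genes in the count table belong to them. They were taken by gene name: 24 act in S phase or in its preparation and 21 act in mitosis. RNA was sequenced from osteoclast precursors (OCPs), the mononuclear cells that fuse into bone-resorbing osteoclasts. All cultures began as bone marrow-derived macrophages, received 40 ng/ml macrophage colony-stimulating factor (M-CSF) for 24 h, and were then primed with 40 ng/ml RANKL, the cytokine that induces osteoclasts, for 48 h. WT cells came from C57BL/6 mice and KO cells from mice lacking the long noncoding RNA lincRNA-EPS, with 3 cultures of each genotype that the submitters call biologically independent. The paper names C57BL/6 for both genotypes in its periodontitis model, along with the age and sex of those mice. For the animals behind these cultures, the sources used here do not give age or sex.

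A cell that divides first licenses its replication origins by loading the MCM helicase, then fires them and copies its DNA in S phase, and finally condenses and separates its chromosomes in mitosis. Most of these genes are transcribed in waves. E2F factors drive the earlier wave at the G1/S boundary, and the later G2/M wave is controlled through CHR elements and NF-Y (CCAAT) boxes in the promoters. M-CSF is a mitogen for macrophage precursors, and cells leave the cell cycle as they fuse into osteoclasts. In RNA from a whole culture, a change in the share of dividing cells and a change in RNA per dividing cell cannot be told apart.

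Letters known from these control elements were looked for in the promoters, because members that share elements are often described as moving together. RefSeq promoter sequences (build GRCm38.p6) were matched for 38 of the 45 members. *Mcm4*, *Gins1*, *Gins2*, *Ccne2*, *Ccna2*, *Aurkb* and *Tpx2* had no entry. Of each promoter, the 250 bases upstream of the start were searched on both strands for CCAAT (the NF-Y box, ATTGG on the other strand), TTTGAA (the core of the CHR element, TTCAAA on the other strand), and TTGGCGC and TTCCCGC (forms of the E2F site). ATTGG and TTGGCGC can overlap by 4 letters. The last 120 of these bases are shown for 5 widely used proliferation genes and for *Ube2c*, to which the results return. Sequences run 5′ to 3′ along the gene's strand, and capitals mark the matches. *Rrm2* encodes the small subunit of ribonucleotide reductase (chr12:24708134-24708253, + strand), *Pcna* the sliding clamp (chr2:132253181-132253300, - strand), *Cdk1* the mitotic kinase (chr10:69352913-69353032, - strand), *Top2a* a topoisomerase (chr11:99024190-99024309, - strand), *Mki67* the Ki-67 protein (chr7:135716380-135716499, - strand) and *Ube2c* a ubiquitin-conjugating enzyme (chr2:164769809-164769928, + strand).
Rrm2: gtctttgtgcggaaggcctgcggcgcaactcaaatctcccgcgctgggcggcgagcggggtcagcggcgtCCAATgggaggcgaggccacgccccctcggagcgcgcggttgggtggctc
Pcna: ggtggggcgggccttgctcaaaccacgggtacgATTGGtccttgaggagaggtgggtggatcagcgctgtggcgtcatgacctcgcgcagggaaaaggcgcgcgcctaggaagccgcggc
Cdk1: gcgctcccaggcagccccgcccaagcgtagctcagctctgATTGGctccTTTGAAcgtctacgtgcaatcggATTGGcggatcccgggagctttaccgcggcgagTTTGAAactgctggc
Top2a: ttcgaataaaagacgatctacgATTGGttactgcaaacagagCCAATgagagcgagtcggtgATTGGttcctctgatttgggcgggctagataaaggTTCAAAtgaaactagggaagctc
Mki67: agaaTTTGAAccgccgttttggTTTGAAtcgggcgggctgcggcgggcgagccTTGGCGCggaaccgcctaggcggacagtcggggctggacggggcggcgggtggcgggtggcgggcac
Ube2c: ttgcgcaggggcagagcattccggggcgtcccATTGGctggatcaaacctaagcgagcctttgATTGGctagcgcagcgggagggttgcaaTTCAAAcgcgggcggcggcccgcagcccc
The *Rrm2* and *Pcna* windows each hold 1 CCAAT match and none of the other letters. The *Cdk1*, *Top2a* and *Ube2c* windows hold both CCAAT and CHR letters, and the *Mki67* window holds 2 CHR matches and an E2F match.

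CCAAT was the most frequent of the 4 motifs, in 73.7% of the 38 matched members against 40.7% of the matched genes among all those tested for expression and 37.5% of all genes with a RefSeq promoter. Mitosis members held it in 88.9% of promoters and replication members in 60.0%. In the 46 and 39 matched genes of longer lists of the same pathways, used further on, these shares were 60.9% and 53.8%. Among the members, 18 held at least 2 matches. The CHR letters were in 38.9% of the promoters of mitosis members and in 10% of those of replication members, beside 13.2% of tested genes and 18.3% of all genes. For TTGGCGC the shares were 16.7% of mitosis and 15% of replication members, against 4.03% of tested and 2.31% of all genes. TTCCCGC was in 25.0% of replication members and in 0 of the 18 mitosis members matched, against 8.03% of tested and 4.38% of all genes. In 9 matched members none of the letters was found in the window. *Cdt1*, *E2f1*, *Tk1* and *Birc5* are among these. A match is a description of the letters and not a bound site.

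Members were well expressed in these cultures, as the plot of level per transcript length shows. Levels between genes are compared as CPM, a gene's counts scaled to a common library size, divided by the length of the longest transcript in kb. On that scale, the median member stood at the percentile 81.4 of 13176 tested genes with a known length. *Pcna*, whose product holds DNA polymerases on the template, was highest at 237 CPM per kb, the percentile 98.1. *Top2a*, which untangles replicated chromosomes, followed at 81.0 CPM per kb and *Mcm5*, a subunit of the MCM helicase, at 69.9. *Chek1*, the kinase of the replication checkpoint, at 4.52 and *Orc1*, the largest subunit of the origin recognition complex, at 3.6 CPM per kb were lowest, with *Orc1* at the percentile 34.9. In no library did a member have fewer than 161 counts, so all 45 passed the filter on low counts.

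**Figure D1:**
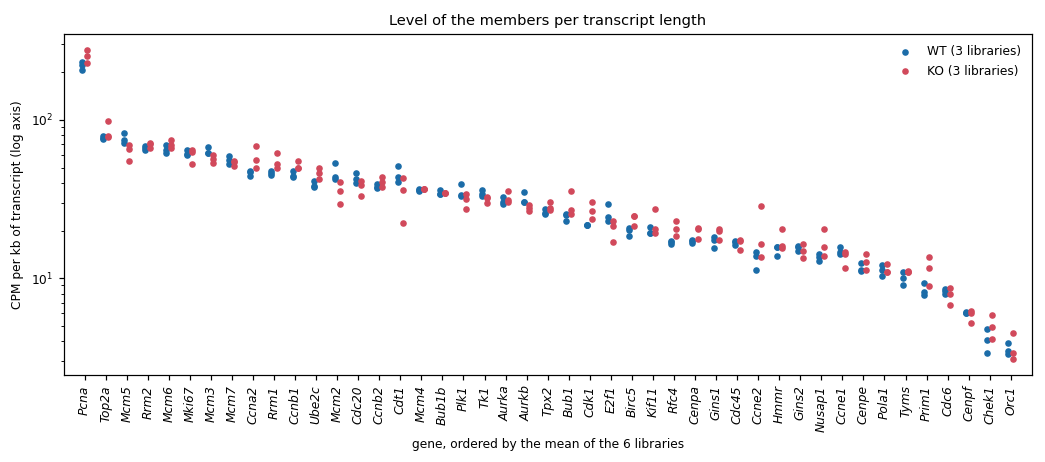
Level of each member in CPM per kb of its longest transcript (log axis), with 1 point for each library, WT in blue and KO in red, and genes ordered by their mean over the 6 libraries. Points of the 2 genotypes lie close to each other for most genes, and the order runs from *Pcna* at 237 to *Orc1* at 3.6 CPM per kb.

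The libraries held 17757318 to 19998557 rounded estimated counts. lincRNA-EPS (*Ttc39aos1*, ENSMUSG00000085873) had 20, 37 and 41 counts in the WT libraries and 0 in each KO library. Macrophage and osteoclast markers were expressed in all 6 libraries, while B cell markers summed to at most 9.2 CPM, T cell markers to at most 0.633 and erythroid markers to at most 0.735 CPM. Mitochondrial genes took 1.503, 1.001 and 1.527% of the counts in WT replicates 1 to 3 and 1.78, 2.12 and 3.32% in KO, so that their share was higher in every KO library. In KO replicate 2 the ribosomal RNA gene *Rn18s-rs5* took 2.71% of the counts and was the top gene. The part of both in the members' differences was not tested. The libraries of KO replicate 3 and WT replicate 2 stand apart from those of their own genotype along GC content, the share of G and C bases in a transcript, and this touches the members as described further on.

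Added up, the 45 members took a similar part of every library. Their summed level was 5160, 5321 and 5218 CPM in WT replicates 1, 2 and 3, and 5271, 5286 and 5656 CPM in KO replicates 1, 2 and 3. KO replicates 1 and 2 lie between WT replicates, and KO replicate 3 is the highest library. The mitosis members alone summed to 2600, 2625 and 2589 CPM in WT and to 2708, 2639 and 2999 CPM in KO. All KO libraries are above all WT libraries here, KO replicate 2 by little and KO replicate 3 by the most. The mean of the mitosis members (log2, relative to all 6 libraries) did not overlap either, at -0.057 to -0.0502 in WT and 0.0028 to 0.1358 in KO. With the correction for GC content described further on, this mean overlapped, at -0.0391 to 0.0093 in WT and 0.0077 to 0.045 in KO. The replication members summed to 2560 to 2695 CPM in WT and to 2563 to 2656 CPM in KO, with overlap. KO replicate 3 held the highest value of the 6 libraries for 24 members and the lowest for 12, and WT replicate 2 held the highest for 12 and the lowest for 18. The other 4 libraries together were the highest for 9 members, and the plot of members by library shows the opposed colours of those 2 columns.

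**Figure D2:**
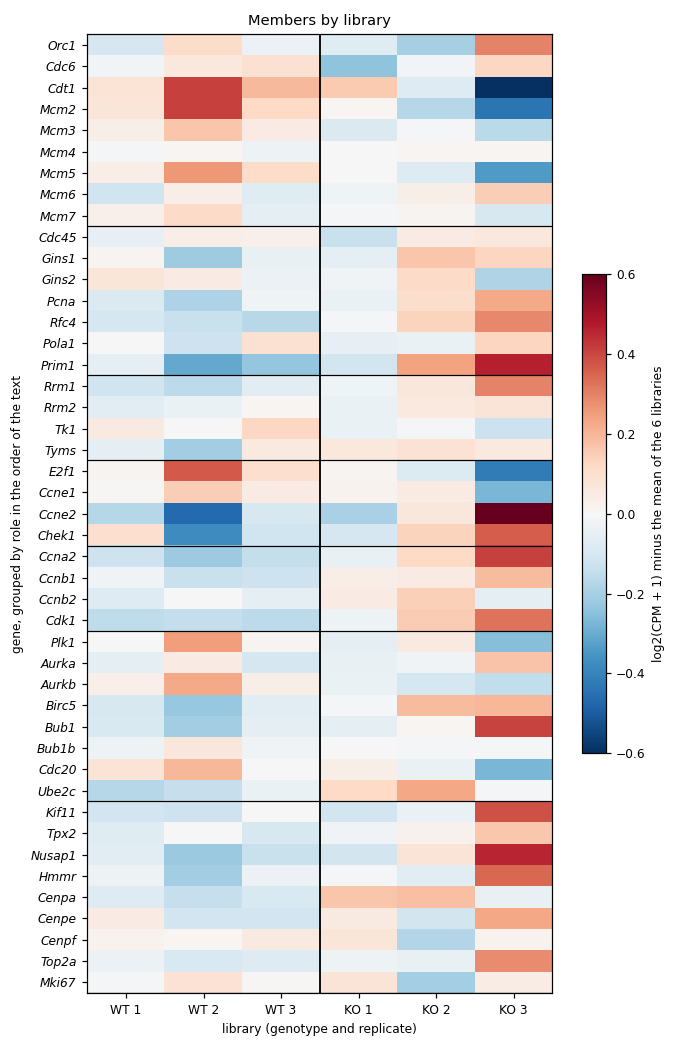
Each row is 1 member and each column 1 library, and the colour gives log2(CPM + 1) minus the mean of the 6 libraries (red higher, blue lower, with the scale ending at its outermost marks), with role groups divided by lines. WT replicate 2 and KO replicate 3 carry the strongest colours, and they are often opposite.

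No member met the limits used for KO against WT, an adjusted p under 0.01 and a fold change above 1.3. In edgeR's quasi-likelihood test, p-values were adjusted over all 13428 genes tested. The members' adjusted p ran from 0.151 to 0.941, and those limits called 0.00745% of all genes. The deleted gene itself, lincRNA-EPS, had an adjusted p of 0.12 in this test and was not called, though its counts were low. A member that is not called is thus not shown to be unchanged. DESeq2 called 0 members as well, with a lowest adjusted p of 0.0735, and it called 1.12% of the 10836 genes that it gave an adjusted p. At an unadjusted p under 0.05 in DESeq2, 8 members were higher, or 17.8%, and 3 lower, or 6.67%, beside 12.1% and 12.8% of the same 13428 genes. At an unadjusted p under 0.05 in edgeR, 6 members were higher in KO (*Rfc4*, *Prim1*, *Ccna2*, *Cdk1*, *Birc5*, *Ube2c*), or 13.3% of 45, beside 13% of all genes. Likewise 3 were lower (*Mcm2*, *Mcm5*, *E2f1*), or 6.67%, beside 13.2% of all genes. All 3 KO libraries lay above all 3 WT libraries for 10 members, or 22.2%, beside 16.9% of all genes, and below them for 5 members, or 11.1%, beside 18.8%.

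Point estimates were small. By edgeR's log2 fold change (KO over WT, positive where KO is higher), 28 members were above 0 and 17 below, from -0.42 for *Cdt1* to 0.56 for *Ccne2*, with a median of 0.10 beside 0.01 over all genes tested. Beyond 1.3-fold (0.38 on the log2 scale) lay 4 members, or 8.89%, beside 26.1% of all genes. *Cdt1* and *Mcm2* were lower and *Prim1* and *Ccne2* higher, and none was beyond it without KO replicate 3 (members from -0.29 to 0.30). For 17 members, or 37.8%, the whole 95% interval lay within 1.3-fold in both directions, against 20.3% of all genes, so that for these a larger change falls outside the interval. The other 28 intervals reach past 1.3-fold in at least 1 direction. Of these, 19 also include 0, so that for them neither no change nor a change of that size falls outside the interval. The other 9 exclude 0, and they belong to the 9 members with an unadjusted p under 0.05.

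Among the 9 genes of origin licensing 3 were above 0 and 6 below, with a median log2 fold change of -0.09. These genes encode the origin recognition complex (*Orc1*), the loaders *Cdc6* and *Cdt1*, and the 6 subunits of the MCM helicase. *Cdt1* had 109, 137 and 118 CPM in WT replicates 1 to 3 and 115, 97.4 and 59.9 CPM in KO. KO replicate 1 lies within the WT range, so the groups overlap, and KO replicate 3 is the lowest library (0.748-fold, log2 fold change -0.42 ± 0.21 SE, adjusted p = 0.233). *Mcm2* had 147, 186 and 152 CPM in WT and 141, 124 and 103 CPM in KO. All KO values are below all WT values, at 0.758-fold (log2 -0.40 ± 0.14 SE, adjusted p = 0.153). For *Mcm5* the same holds, with 241, 281 and 253 CPM in WT and 235, 222 and 185 CPM in KO, and a log2 fold change of -0.27. *Mcm3* was the other subunit without overlap, at 211 to 231 CPM in WT and 184 to 205 CPM in KO.

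*Mcm6* was the highest of the group by fold change, with 271, 303 and 280 CPM in WT and 289, 302 and 326 CPM in KO. Its groups overlap and its log2 fold change was 0.10 ± 0.09 SE (adjusted p = 0.487). *Mcm4* was close to constant, between 128 and 132 CPM in all 6 libraries, with a 95% interval of the log2 fold change from -0.16 to 0.20. *Mcm7* (log2 -0.06), *Cdc6* (-0.09) and *Orc1* (0.03) also had overlapping groups. The 6 subunits form 1 ring, and their log2 fold changes ran from -0.40 (*Mcm2*) to 0.10 (*Mcm6*).

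The 7 genes of the replication fork had a median log2 fold change of 0.17, with 5 above 0 and 2 below. *Cdc45*, *Gins1* and *Gins2* complete the active helicase with the MCM ring, *Prim1* and *Pola1* make the primers, and *Rfc4* and *Pcna* load and form the clamp. *Prim1*, the catalytic primase subunit, had 29.1, 24.4 and 25.7 CPM in WT and 28.1, 36.1 and 42.4 CPM in KO. KO replicate 1 falls inside the WT range and the other two lie above it (1.34-fold, log2 0.43 ± 0.16 SE, adjusted p = 0.158). *Pola1*, the polymerase subunit of the same complex, had 55.3 to 64.4 CPM in WT and 58.3 to 66.1 CPM in KO, a log2 fold change of 0.02. *Pcna* had 338, 315 and 352 CPM in WT and 349, 386 and 420 CPM in KO. Only KO replicate 1 overlaps WT, and the log2 fold change was 0.20 ± 0.10 SE (adjusted p = 0.235).

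*Rfc4* was the 1 gene of the fork without overlap, at 22.1, 21.6 and 21.1 CPM in WT and 23.6, 26.2 and 29.3 CPM in KO (log2 0.29, adjusted p = 0.167). It came to 0.09 with the correction for GC content described further on. *Gins2* was the lowest of the fork genes, with 62.1, 61.2 and 57.6 CPM in WT and 58.1, 63.9 and 52.0 CPM in KO. The groups overlap and the log2 fold change was -0.06 ± 0.10 SE. *Cdc45* (-0.01) and *Gins1* (0.17), its partners in the helicase, overlapped as well.

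The 4 genes of nucleotide supply had a median of 0.10. *Rrm1* and *Rrm2* encode the subunits of ribonucleotide reductase, *Tyms* makes thymidylate and *Tk1* salvages thymidine. *Rrm1* had 253, 246 and 262 CPM in WT and 270, 288 and 338 CPM in KO, all above WT (log2 0.23 ± 0.11 SE, adjusted p = 0.196). *Rrm2* had 142, 145 and 150 CPM in WT and 145, 155 and 157 CPM in KO, with overlap and a 95% interval from -0.13 to 0.25 on the log2 scale. *Tk1* had 84.8, 81.8 and 89.2 CPM in WT and 79.4, 81.2 and 74.6 CPM in KO, all below WT (log2 -0.12 ± 0.09 SE, adjusted p = 0.397). *Rrm1* and *Tk1* came to 0.04 and -0.05 with the correction for GC content described further on. *Tyms*, at 35.1 to 42.4 CPM in WT and 42.4 to 43.3 CPM in KO, was separated by less than the printed digits.

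The 4 genes of G1/S control and of the replication checkpoint had the widest intervals of the 7 role groups, with a median half-width of 0.36 on the log2 scale. *Ccne2*, a cyclin E that activates CDK2 before S phase, had 41.7, 33.8 and 44.0 CPM in WT and 41.0, 49.4 and 86.0 CPM in KO. KO replicate 3 stands far above the rest and KO replicate 1 inside WT (1.48-fold, log2 0.56 ± 0.25 SE, adjusted p = 0.193). *Ccne1*, the other cyclin E, had 28.3 to 31.3 CPM in WT and 23.1 to 29.2 CPM in KO, a log2 fold change of -0.13. *E2f1*, a transcription factor of the G1/S wave, had 63.4, 81.3 and 67.2 CPM in WT and 63.5, 59.1 and 46.6 CPM in KO. KO replicate 1 overlaps WT replicate 1, and KO replicate 3 is again the outermost library (log2 -0.32 ± 0.14 SE, adjusted p = 0.191). *Chek1* had 12.8 to 18.2 CPM in WT and 15.7 to 22.1 CPM in KO.

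All 4 genes of the mitotic cyclins and their kinase were above 0, with a median log2 fold change of 0.25. *Cdk1*, the kinase that drives entry into mitosis, had 94.5, 95 and 94.3 CPM in WT and 103, 117 and 132 CPM in KO. Every KO library was above WT, whose own spread was 0.37 CPM (SD, n = 3), against 14.5 CPM in KO (1.24-fold, log2 0.32 ± 0.11 SE). Its adjusted p of 0.151 in edgeR was the lowest of the 45 members. *Ccna2*, the cyclin of S phase and G2, had 140, 131 and 138 CPM in WT and 148, 166 and 203 CPM in KO. No library overlaps here either (1.26-fold, log2 0.34 ± 0.12 SE, adjusted p = 0.156). *Ccnb1*, the main mitotic cyclin, had 118, 109 and 110 CPM in WT and 123, 124 and 137 CPM in KO, again without overlap (log2 0.19 ± 0.09 SE, adjusted p = 0.213). *Ccnb2*, its relative, had 57.0, 60.0 and 57.7 CPM in WT and 62.4, 66.5 and 58.0 CPM in KO, where KO replicate 3 falls inside WT (log2 0.10 ± 0.09 SE, adjusted p = 0.516).

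Of the 8 mitotic kinases, checkpoint genes and genes of the anaphase-promoting complex (APC/C), 4 were above 0 and 4 below, with a median of 0.03. *Birc5* (survivin) and *Aurkb* (Aurora B) encode partners in the chromosomal passenger complex. *Birc5* had 67.4, 61.4 and 68.9 CPM in WT and 71.5, 82.4 and 82.9 CPM in KO, all above WT (log2 0.26 ± 0.10 SE, adjusted p = 0.163). *Aurkb* had 59.2, 68.0 and 59.3 CPM in WT and 56.3, 53.8 and 52.1 CPM in KO, all below WT (log2 -0.20 ± 0.10 SE, adjusted p = 0.221). The partners thus pointed in opposite directions, and neither passed the limits.

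*Ube2c* supplies ubiquitin to the APC/C, which destroys cyclin B at the end of mitosis. It is described because of a call reported further on, which means that it was picked after its values were seen. It had 82.4, 84.3 and 90.2 CPM in WT and 101, 109 and 92.4 CPM in KO, without overlap (1.18-fold, log2 0.24 ± 0.10 SE, adjusted p = 0.175). *Cdc20*, the activator of the APC/C, had 71.9 to 82.6 CPM in WT and 59.3 to 73.6 CPM in KO (log2 -0.19). *Bub1* and *Bub1b* act in the spindle checkpoint. *Bub1* was at 78.7 to 87.5 CPM in WT and 87.6 to 121 CPM in KO (log2 0.26), while *Bub1b* was at 124 to 133 and 126 to 127 CPM (log2 -0.01). *Plk1* (log2 -0.18) and *Aurka* (0.08), kinases of mitotic entry and of the centrosome, had overlapping groups.

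The 9 genes of the spindle, kinetochore and chromosome structure had a median of 0.14, with 7 above 0 and 2 below. *Nusap1*, a spindle-associated protein, had 50.1, 45 and 47.9 CPM in WT and 48.6, 55.6 and 72.5 CPM in KO. KO replicate 1 overlaps and KO replicate 3 stands apart (1.24-fold, log2 0.31 ± 0.15 SE, adjusted p = 0.215). *Top2a* had 411, 395 and 399 CPM in WT and 412, 408 and 512 CPM in KO. Apart from KO replicate 3, its values fall within 395 to 412 CPM (log2 0.14 ± 0.11 SE, adjusted p = 0.412). *Mki67*, the usual stain for cycling cells, had 605, 649 and 614 CPM in WT and 645, 529 and 629 CPM in KO. KO replicate 2 is lowest and the other two lie inside WT (log2 -0.05 ± 0.11 SE, 95% interval -0.29 to 0.19). *Cenpf*, a kinetochore protein, had 67.0, 66.7 and 68.5 CPM in WT and 69.4, 58.3 and 67.0 CPM in KO (log2 -0.05 ± 0.10 SE, adjusted p = 0.736). *Cenpa*, the histone of the centromere, was the 1 gene of this group without overlap, at 63.1 to 66.0 CPM in WT and 67.6 to 79.1 CPM in KO (log2 0.21). The motors *Kif11* and *Cenpe* and the spindle proteins *Tpx2* and *Hmmr* had overlapping groups and log2 fold changes of 0.12 to 0.20.

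GC content moved with these differences. The log2 fold change was correlated with GC content across the 45 members (Pearson's r = -0.75) and less so across the 13176 tested genes with a value (r = -0.51). These genes share the same 6 libraries, so the correlation is a description. Of the 15 members with the lowest GC content (36.3 to 45.3%), 14 were above 0 and 1 below, with a median log2 fold change of 0.20. Of the 15 with the highest (50.4 to 58.3%), 2 were above 0 and 13 below, with a median of -0.17. *Ccne2*, the highest member by fold change, has the lowest GC content, 36.3%, while *Cdt1* and *E2f1* have the highest, 57.8% and 58.3%.

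A trend with GC content was also present between some libraries of a single genotype, where the genotype does not differ. KO replicate 3 minus KO replicate 1 gave r = -0.82 with GC content over the members, with medians of 0.33 in the 15 members of lowest and -0.16 in the 15 of highest GC content (differences in log2(CPM + 1)). WT replicate 2 against WT replicate 1 ran the other way, with r = 0.76, -0.12 in the low-GC members and 0.13 in the high-GC members. Over 11170 genes with at least 2 CPM, these pairs gave r = -0.66 and 0.58. The members' trend was weaker between WT replicates 1 and 3 (r = 0.21) and between KO replicates 1 and 2 (r = -0.28). Over the 11170 genes, each library's departure from the mean had r with GC content of 0.288, 0.656 and 0.353 in WT. In KO it was 0.11, -0.145 and -0.708, below every WT library. A trend of the libraries and a genotype difference along GC content thus cannot be told apart. Without KO replicate 3, the members' r was -0.485 and their median log2 fold change was 0.03 in place of 0.10. The members described above as outermost in that library then came closer to 0. *Ccne2* went from 0.56 to 0.18, *Cdt1* from -0.42 to -0.19, *Prim1* from 0.43 to 0.28 and *E2f1* from -0.32 to -0.20 on the log2 scale. Likewise *Ccna2* went to 0.20, *Rrm1* to 0.14, *Pcna* to 0.13, *Nusap1* to 0.13, *Mcm6* to 0.05 and *Top2a* to 0.03. Without WT replicate 2, *E2f1* was at -0.21 and *Aurkb* at -0.13. The part of GC content in single differences was not tested beyond the correction described next.

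**Figure D3:**
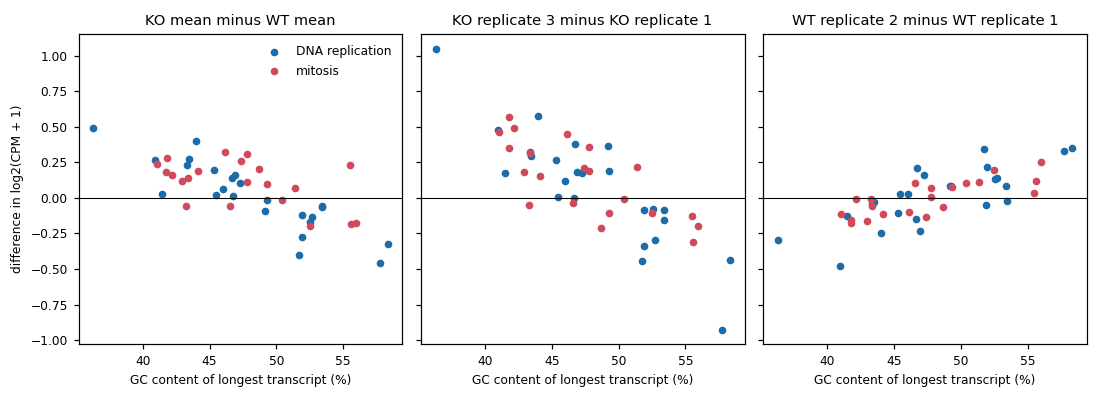
Difference in log2(CPM + 1) of each member against the GC content of its longest transcript, for the KO mean minus the WT mean (left), KO replicate 3 minus KO replicate 1 (middle) and WT replicate 2 minus WT replicate 1 (right), with replication members in blue and mitosis members in red. The first pair of panels slope downwards (r = -0.82 in the middle one) and the right one upwards (r = 0.76).

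Differences were smaller for most members after a correction that removes each library's trend with GC content across all genes. Such a correction also removes any genotype difference that runs along GC content. With it, 24 members were above 0 and 21 below, the median was 0.02 on the log2 scale, and estimates ran from -0.33 (*Mcm2*) to 0.43 (*Ube2c*). The direction changed for 14 members, 9 from above 0 to below and 5 the other way. For 37 members, or 82.2%, the 95% interval then lay within 1.3-fold, against 40.1% of all genes. By edgeR 6 members were higher at an unadjusted p under 0.05 (*Ube2c*, *Cdk1*, *Ccna2*, *Birc5*, *Prim1* and *Cenpa*), beside 11.8% of all genes, and 4 were lower (*Mcm2*, *Mcm5*, *Pola1* and *Cenpf*), beside 14.1%. Of these, 7 also had a p under 0.05 in the same direction without the correction. No member passed the limits in edgeR, where the lowest adjusted p was 0.0508, for *Ube2c*.

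By role, the mitotic cyclins and *Cdk1* kept 4 of 4 above 0, with a corrected median of 0.16. *Cdk1* went from 0.32 to 0.26 ± 0.08 SE, *Ccna2* from 0.34 to 0.23 ± 0.08 SE and *Ccnb1* from 0.19 to 0.02. Licensing kept its median, at -0.09, with *Mcm2* at -0.33 ± 0.10 SE and *Mcm5* at -0.20, while *Cdt1* came to -0.17. The spindle group turned from a median of 0.14 to -0.05. The extremes of G1/S control came close to 0, with *Ccne2* at 0.11 and *E2f1* at -0.03. *Bub1* changed direction to -0.02, *Cdc20* to 0.01 and *Plk1* to 0.04. *Top2a* turned to -0.05, *Mki67* stood at -0.14 and *Pcna* at 0.07, and each of these intervals includes 0. In the plot of the members' intervals, 34 estimates lie closer to 0 with the correction and 11 lie further away, among them those of *Ube2c*, *Pola1*, *Cenpf* and *Mki67*.

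**Figure D4:**
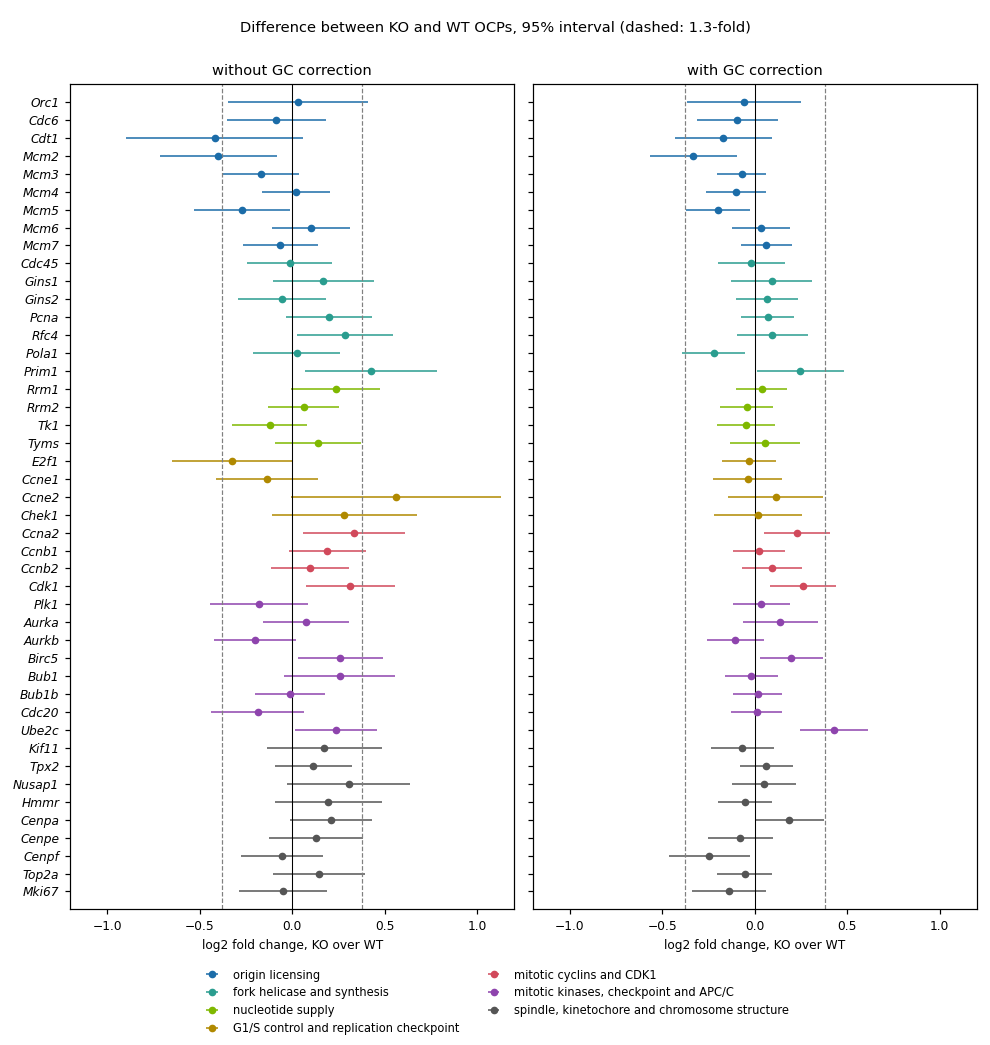
Log2 fold change of KO over WT for each member with its 95% interval from edgeR, without (left) and with (right) the correction for GC content, coloured by role, and with dashed lines at 1.3-fold. On the left the estimates run from -0.42 to 0.56, and on the right from -0.33 to 0.43 with *Ube2c* as the highest.

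*Ube2c* was the 1 member that met the limits in any of the fits run, by DESeq2 with the GC correction (log2 fold change 0.43, adjusted p = 0.000993). There the limits called 3.25% of the 10562 genes with an adjusted p. With its 55.5% GC it is a high-GC gene whose KO libraries lay above WT, against the trend of such genes. In the same fit *Mcm2* (adjusted p = 0.0362) and *Cdk1* (adjusted p = 0.0490) were under 0.05 but not past the limits. Their log2 fold changes were -0.33 and 0.26. In all, 3 of the 45 members were under 0.05, beside 1142 of the 10562 genes with an adjusted p.

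Other genes of the same pathways were taken from textbook lists. Of 46 further DNA replication genes, all tested, 26 were above 0 and 20 below, with a median of 0.06. With the GC correction the balance turned, to 20 above and 26 below with a median of -0.04, and 6 were higher and 7 lower at an unadjusted p under 0.05, beside 11.8% and 14.1% of all genes. Without it, 9 were higher and 8 lower at an unadjusted p under 0.05, beside 13% and 13.2% of all genes, and 0 passed the limits in edgeR. *Rpa3*, a subunit of the single-strand binding protein RPA, was highest, with 11.2, 7.88 and 11.7 CPM in WT and 14.4, 14.1 and 18.2 CPM in KO (log2 0.60 ± 0.18 SE, adjusted p = 0.147, corrected for GC content 0.15). *Pold1*, the catalytic subunit of DNA polymerase delta, was lowest, with 77.0, 102 and 80.1 CPM in WT and 67.1, 59.5 and 42.2 CPM in KO (log2 -0.62 ± 0.18 SE, adjusted p = 0.147, corrected -0.23). Neither has libraries that overlap between genotypes. They too lie at the ends of GC content, 34.2% for *Rpa3* and 61.0% for *Pold1*. DESeq2 called *E2f2*, an activating E2F factor, lower in KO (log2 -0.45 in edgeR, adjusted p = 0.00999 in DESeq2), and did not with the GC correction (adjusted p = 0.178). With the correction it called *Gmnn*, whose product geminin holds back *Cdt1*, at an adjusted p of 0.00944 (log2 0.47).

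Of 54 further mitosis genes, all tested, 34 were above 0 and 20 below, with a median of 0.06, and 11 were higher and 5 lower at an unadjusted p under 0.05, beside 13% and 13.2% of all genes. Here too the balance turned with the GC correction, to 23 above and 31 below with a median of -0.07. At an unadjusted p under 0.05, 6 were then higher and 10 lower, beside 11.8% and 14.1% of all genes. Over all genes tested the balance turned as well, from 6848 above and 6580 below to 6473 above and 6955 below. None passed the limits in edgeR or in DESeq2 without the correction. *Cks2*, a small subunit of CDK complexes, was highest, with 28.5, 19.4 and 29.1 CPM in WT and 37.2, 39.5 and 36.2 CPM in KO (log2 0.55 ± 0.16 SE, adjusted p = 0.147, corrected 0.42). *Cks1b*, its paralog, had a log2 fold change of 0.39 and was called by DESeq2 with the correction (adjusted p = 0.00665). *Cit*, the citron kinase of cytokinesis, was lowest, with 42.4, 55.1 and 43.8 CPM in WT and 39.6, 30.1 and 24.3 CPM in KO (log2 -0.59 ± 0.18 SE, adjusted p = 0.147, corrected -0.44). *Cks2* and *Cit* kept their direction and more than 1.3-fold with the correction. *E2f2*, *Gmnn* and *Cks1b* were picked after their values were seen.

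Markers of the cells in culture moved beside these results. The 8 osteoclast markers summed to 2410 to 2590 CPM in WT and 3680 to 3920 CPM in KO, and the 7 macrophage markers to 3590 to 3970 CPM in WT and 3250 to 3360 CPM in KO. At an unadjusted p under 0.05, 6 osteoclast markers were higher and 5 macrophage markers lower. The 9 genes of neutrophils and granulocyte precursors, cells of the marrow that can carry over and of which the precursors divide, summed to 1320 to 1480 CPM in WT and 1730 to 2050 CPM in KO, with 4 higher and 2 lower at an unadjusted p under 0.05. Within this list the genes of the precursors had values in the other direction, of which 2 (*Mpo* and *Prtn3*) were lower in KO at an unadjusted p under 0.05. *Mpo* had 3043 to 4296 counts in WT and 2337 to 2992 in KO, *Elane* 1091 to 1251 and 698 to 1078, and *Prtn3* 742 to 868 and 436 to 687, while *Ctsg*, at 506 to 561 and 428 to 530, overlapped. Among genes of later stages, *S100a8* had 2438 to 4267 counts in WT and 5051 to 8568 in KO. *S100a9*, *Ngp* and *Ltf* also had more counts in every KO library than in any WT library. *Camp* overlapped, at 622 to 734 and 634 to 936. The summed levels of each of these lists do not overlap between genotypes, and neither do those of the mitosis members before the correction for GC content. Those of the replication members and of all 45 do overlap. The marker sums were not corrected for GC content. Smaller sums without overlap were those of dendritic cell markers (33.7 to 36.9 CPM in WT, 42.7 to 46.4 CPM in KO) and of mast cell and basophil markers (2.94 to 3.71 and 4.66 to 5.68 CPM). The 4 genes of stem and progenitor cells summed to 38.8 to 41.5 CPM in WT and 38.0 to 44.3 CPM in KO. The part of these cells in the members' differences was not tested.

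Some members may share reads with other genes, which was not tested. In 17 members at least 1 library had an estimated count that was not whole (any decimal part, with no tolerance). This can happen where reads are divided between genes. In 28 members all values were whole. *Gins2*, *Tyms* and *Ccne2* were among the 17, with values that were not whole in all 6 libraries, so their levels may be less certain. Of the pseudogene copies of *Pcna*, *Ccnb1*, *Ccnb2* and *Tyms* in the table, only *Ccnb2-ps* had counts, at most 3.14 in a library.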

How the data were processed

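Sequencing and analysis were done at a service provider, and the submitters' processing notes name fastp, HISAT2, StringTie, RSEM and the build GRCm39. The authors deposited estimated counts per gene, not normalized, of which 25.14 to 26.59% of the values above 0 per library were not whole (any decimal part). The table also holds the authors' mean for each genotype, which was not used. Rows without a gene name held 0.173 to 0.239% of the counts.

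Estimated counts were rounded and tested with edgeR 4.0.16 in R 4.3.3 (filterByExpr, TMM, glmQLFit with legacy = FALSE, glmQLFTest, two-sided, Benjamini-Hochberg adjustment), 3 WT against 3 KO libraries, fitted on all 13428 genes kept. Library totals were 17757318 to 19998557 and edgeR's common BCV was 0.142. Intervals use the SE of the fit and cover the spread between these cultures. CPM are scaled by TMM. GC content and length come from the longest transcript in GENCODE M21 (GRCm38), promoters from RefSeq (GRCm38.p6), matched by identifier or symbol, and no other coordinates are given because the builds differ. For the GC correction, every library's departure from the mean log2 count was modelled against GC content (natural spline, 5 df) and passed to the fit as an offset. DESeq2 1.42.0 and limma 3.58.1 gave alternatives, with leaving out each library, other scalings and filters, and the replicate number as a block. The members, gene lists and GC correction were chosen with earlier results of these data known. Full values are given for the highest and lowest member of each role group, widely used proliferation genes, any member past the limits, and the highest and lowest gene of both other lists. No set test was run.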

Additional observations from a re-analysis of the deposited data

How the results depend on the processing

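The number of genes past the limits was 0 higher and 1 lower in edgeR. It was 53 higher and 68 lower by DESeq2, 1 and 2 with the GC correction in edgeR, and 182 and 161 by DESeq2 with the GC correction. Leaving out a library gave 0 lower without WT replicate 2 or 3 or KO replicate 2, up to 2 without KO replicate 1. The members called stayed at 0, apart from 1 (*Ube2c*) by DESeq2 with the GC correction. The GC correction alone, with the replicate block and with DESeq2 gave median log2 fold changes of 0.0157, 0.0165 and 0.017 for the 45 members, -0.0244, -0.0249 and -0.0218 for the replication members, and 0.0243, 0.0246 and 0.0268 for the mitosis members. In the same order the fork genes had 0.0704, 0.0699 and 0.073, nucleotide supply -0.0036, -0.0033 and -9e-04, G1/S control -0.0072, -0.0055 and -0.0053, cyclins and *Cdk1* 0.1602, 0.1567 and 0.1628, the spindle group -0.0541, -0.0532 and -0.0512, the other replication genes -0.044, -0.0431 and -0.0413, and the other mitosis genes -0.0674, -0.0689 and -0.0652. With these corrections *Gins2* reversed to 0.0652, 0.0646 and 0.0676, *Rrm2* to -0.0445, -0.0447 and -0.0419, and *Top2a* to -0.0541, -0.0532 and -0.0512. The correction removes the trend with GC content by construction, and any other cause was not tested.

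Leaving out each library in turn gave medians of 0.0293 (without KO replicate 3) to 0.1209 (without KO replicate 1) for the members, -0.0067 (without KO replicate 3) to 0.0552 (without KO replicate 1) for replication, 0.0565 to 0.1806 for mitosis, -0.1441 without KO replicate 3 for licensing, 0.1021 for the fork, 0.0645 for nucleotide supply and 0.0345 for G1/S control without WT replicate 2, 0.1233 and 0.113 for G1/S control without WT or KO replicate 1, 0.1751 to 0.3124 for cyclins and *Cdk1*, -0.004 to 0.0704 for kinases, checkpoint and APC/C, 0.0346 to 0.202 for the spindle group, 0.0145 to 0.0757 for the other replication genes and 0.0055 to 0.1179 for the other mitosis genes. *Gins2* ranged from -0.1325 to 0.0169, *Cenpf* from -0.1021 to 0.0157 and *Mki67* from -0.1015 to 0.0327. Members at an unadjusted p under 0.05 numbered 11 higher and 4 lower without KO replicate 1 (16.5% and 16.7% of all genes). They numbered 3 and 1 without KO replicate 2 (9.5% and 9.24%), and 5 and 1 without KO replicate 3 (8.97% and 10.3%). Without WT replicates 1, 2 and 3 they were 2 and 2 (9.45% and 10.9%), 1 and 0 (5.61% and 5.6%), and 0 and 1 (9.19% and 10.4%). Members whose whole interval lay within 1.3-fold, 17 with all libraries, numbered 9 without KO replicate 2 (12.1% of all genes) to 27 without KO replicate 3 (30.8%). For 21 members and 4 other genes named by rule and for *Ube2c*, 430 of the 442 alternative values kept their sign, whatever their size.

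Whether same-numbered WT and KO libraries form pairs is not known, since no source says that they were handled together. Their deviations correlated with r = -0.329, 0.136 and 0.266, and so few libraries cannot decide it. With the replicate block 28 members were above 0 and 17 below, the median was 0.0953 and 0 were called, with 4 higher and 4 lower at an unadjusted p under 0.05 (12.6% and 13.9% of all genes). Members had at least 161 counts in every library, and with 3 libraries a group 19 of the 45 intervals hold both 0 and a change of 1.3-fold.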
